A study of Mus musculus with 19 samples.

Results

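Of the 14459 genes measured in hippocampal slices from wild-type (WT) mice and mice lacking Fmr1 (KO), 7 were taken by name because they encode CPEB, Pumilio or Staufen proteins that control mRNAs in neurons: Cpeb1, Cpeb2, Cpeb3, Cpeb4, Pum2, Stau1 and Stau2. All 7 passed the filter on low counts. The study sequenced cytoplasmic RNA and ribosome footprints (RPF), the mRNA fragments that ribosomes protect from RNase, out of shared lysates, to compare what was translated with and without FMRP, the RNA-binding protein that Fmr1 encodes. Both groups were male C57BL/6 littermates aged 28 to 35 days, and the KO line had been backcrossed for over 10 generations. Each biological replicate pooled 8 to 10 slices of 400 µm from 6 to 8 mice of 1 genotype, so the spread between replicates is a spread between pools and not between single mice. All mice received ketamine and xylazine and were perfused with a sucrose solution, and the slices of both genotypes rested at 30 °C for 3 to 4 h and were given cycloheximide at 100 µg/ml, which arrests ribosomes on the mRNA. The protocol describes cutting off CA3 to enrich CA1, whereas the source name gives hippocampal-cortical slices. The labels list 19 samples, of which 14 libraries were analysed: 3 KO and 4 WT for each assay. Every mean below therefore has n = 3 for KO and n = 4 for WT.

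CPEB proteins bind cytoplasmic polyadenylation elements in the untranslated regions of mRNAs and, through poly(A) polymerases and deadenylases, keep those mRNAs silent or release them for translation at synapses. CPEB1 is the founding member, and CPEB2, CPEB3 and CPEB4 resemble each other more closely than they resemble CPEB1. Pumilio proteins bind short Pumilio elements and recruit the CCR4-NOT deadenylase to repress their targets. Staufen proteins bind double-stranded RNA, carry mRNAs into dendrites in granules and, by recruiting the helicase UPF1, can send mRNAs to decay. Many of the mRNAs attributed to these proteins encode synaptic proteins, as do many mRNAs that FMRP binds.

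The 7 genes were present at very different RNA levels in WT slices and at more even footprint levels. Levels are given as TPM, a share of library reads that is corrected for a length per gene and can be set between genes. Pum2, a repressor that acts through Pumilio elements, had the highest RNA level at 185 ± 12.5 TPM (SD), above 92.5% of all genes. Stau2, the Staufen protein concentrated in neurons, followed at 129.5 ± 9.19 TPM. Cpeb3 and Cpeb4 stood at 50.9 ± 3.35 and 45.5 ± 2.27 TPM, and Cpeb1 and Cpeb2 at 33.1 ± 1.45 and 29.1 ± 2.78 TPM. Stau1, the broadly expressed Staufen protein, was lowest at 22.9 ± 1.25 TPM, close to the middle of all genes (percentile 51.0). Within each WT library each gene exceeded the next one in that order. Only the ranges of Cpeb1 and Cpeb2 overlapped between neighbours.

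The footprint order was different. Stau2 (51.9 ± 2.91 TPM), Pum2 (48.5 ± 1.84 TPM), Cpeb3 (47.3 ± 0.988 TPM) and Stau1 (44.8 ± 1.71 TPM) led in WT footprints. Each of these overlapped the next in that order, but every Stau2 value lay above every Cpeb3 and Stau1 value. Cpeb4 followed at 40.7 ± 1.14 TPM, below every Stau1 value, and Cpeb1 (23.4 ± 1.02 TPM) and Cpeb2 (22.8 ± 0.284 TPM) overlapped at the bottom. In KO slices Stau1 moved to the second place in footprints (50.7 ± 2.64 TPM) and Pum2 to the fourth (44.1 ± 1.78 TPM), although Stau1, Cpeb3, Pum2 and Cpeb4 each overlapped the next in that order. The estimated counts behind these values ran from 119 (Stau1) to 3732 (Pum2) in RNA and from 564 (Cpeb1) to 3127 (Pum2) in footprints.

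**Figure D1:**
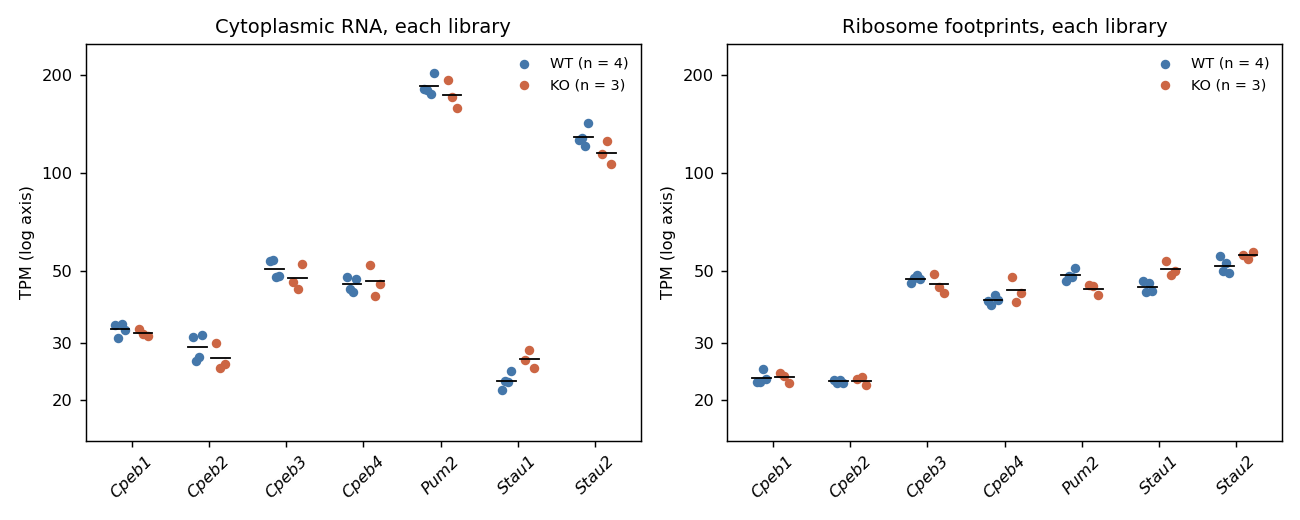
Each point is 1 library and each bar a group mean, in TPM on a log axis, for cytoplasmic RNA (left) and ribosome footprints (right). RNA of WT slices ran from 22.9 TPM for Stau1 to 185 TPM for Pum2, while WT footprints ran from 22.8 TPM for Cpeb2 to 51.9 TPM for Stau2, and the KO points of Stau1 lay above all WT points in both panels.

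Footprints per RNA, the ratio of footprint TPM to RNA TPM in WT slices, was far apart for the Staufen genes and close for the CPEB genes. Stau1 had 1.95 footprint TPM per RNA TPM, above 90.7% of all genes, whereas its paralog Stau2 had 0.401, above 16.6%. Pum2 had 0.262, above 6.43% of genes. The CPEB genes lay near the median ratio of all genes, 0.780: Cpeb3 had 0.932, Cpeb4 0.894, Cpeb2 0.787 and Cpeb1 0.709. In KO slices Stau1 stood at 1.90, Stau2 at 0.485 and Pum2 at 0.253.

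The factor between count and TPM of each gene was the same in both assays, so 1 length per gene divided both RNA reads and footprints. Footprints lie mainly on coding sequence. The sources used here do not state whether this length includes untranslated regions, so their part in the ratio was not tested. Over all genes the Spearman correlation of relative length with the WT ratio was -0.26, given as a description across genes that share libraries. Relative to the median gene, the length was 1.05 for Stau1, 1.18 for Stau2, 1.198 for Cpeb1, 1.54 for Cpeb3, 1.55 for Cpeb4 and 2.19 for both Cpeb2 and Pum2. Stau1 and Stau2 thus differed little in this length and widely in the ratio. The share of each transcript that is untranslated was not measured here.

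**Figure D2:**
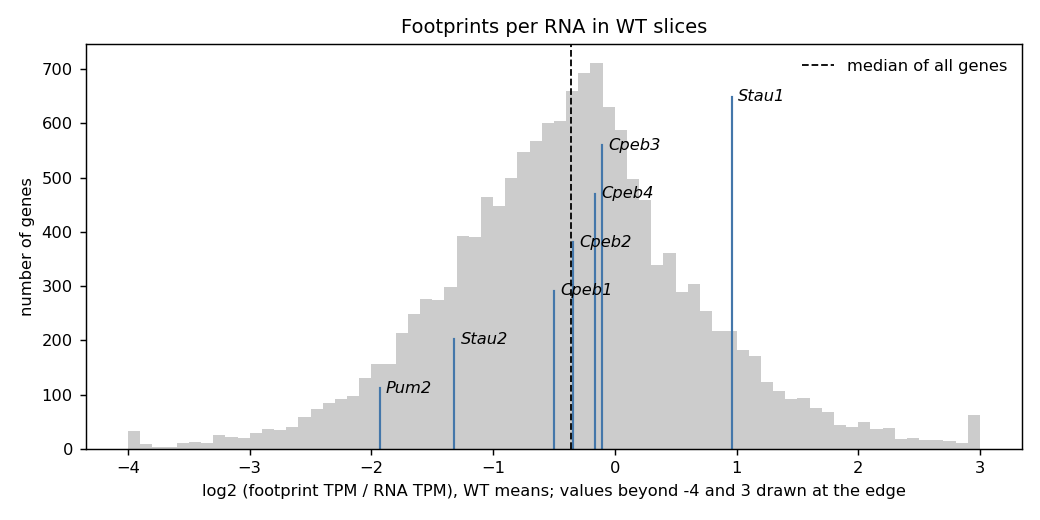
Grey bars count all genes by the log2 of footprint TPM over RNA TPM in WT slices, and blue lines mark the 7 genes (line heights carry no value). Stau1 (ratio 1.95) lies to the right of the dashed median of 0.780, Stau2 (0.401) and Pum2 (0.262) lie to its left, and the CPEB genes lie near it.

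In the annotation of GRCm38 (RefSeq), Cpeb1 spans chromosome 7, 81347026 to 81458001, and Cpeb2 chromosome 5, 43225349 to 43289724. Cpeb1 overlaps 2 pseudogenes, and Cpeb2 overlaps 1 long non-coding RNA. Cpeb3 spans chromosome 19, 37019341 to 37207620, and overlaps the protein-coding gene Marchf5 and a long non-coding RNA. Cpeb4 lies on chromosome 11, 31870104 to 31935635, and overlaps 1 pseudogene. Pum2 lies on chromosome 12, 8674092 to 8752583, Stau1 on chromosome 2, 166947549 to 166996315, and Stau2 on chromosome 1, 16228803 to 16520332, where it overlaps 2 long non-coding RNAs. No strand setting of the counting is given in the sources used here, and reads shared by paralogs (Cpeb2, Cpeb3 and Cpeb4, or Stau1 and Stau2) were divided by the authors' estimation.

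RNA libraries summed to 4.97 to 9.96 M estimated counts, and footprint libraries to 15.6 to 22.7 M. Fmr1 itself fell in KO, from 42.7 to 46.3 TPM in WT footprints to 4.59 to 5.03 TPM (log2 fold change -3.21 ± 0.06 SE, edgeR Benjamini-Hochberg adjusted p = 9.12e-12) and from 16.0 to 19.3 TPM in WT RNA to 3.90 to 5.31 TPM (-2.01 ± 0.11, adjusted p = 9.82e-08), which fits the labels. Markers of CA1 (281 to 287 TPM summed in WT and 258 to 276 TPM in KO footprints), CA3 (105 to 112 TPM and 101 to 104 TPM, over 4 of 5 genes) and the dentate gyrus (381 to 401 TPM and 361 to 389 TPM) were all present. The CA1 sum was also lower in every KO library in RNA (538 to 596 TPM in WT, 469.6 to 518 TPM in KO). Astrocyte markers summed to 1518 to 1641 TPM in WT and 1434 to 1464 TPM in KO footprints, with 1 of 5 higher and 2 lower. Of 3 choroid plexus markers measured, 1 was called higher and 1 lower in footprints (median -0.22). Their sums overlapped between genotypes in footprints, at 9.65 to 11.1 TPM in WT and 10.7 to 19.3 TPM in KO. Ttr rose from a mean of 1.97 to 6.95 TPM (1.79 ± 0.37, edgeR adjusted p = 0.00756), the WT mean being near the lowest values measured. Kl fell (-0.22 ± 0.07, edgeR adjusted p = 0.0417), and Kcnj13 was lower without a call (-0.33, edgeR adjusted p = 0.196). Thalamic markers, whose region the labels do not name, summed to 61.6 to 84.2 TPM in WT and 91.1 to 96.8 TPM in KO footprints, and 4 of 5 rose. All 6 microglial markers fell (376 to 387 TPM in WT, 309 to 328 TPM in KO), as did all 4 fibroblast and meningeal markers (139 to 161 TPM, 108 to 116 TPM). Oligodendrocyte precursor markers summed to 132 to 139.6 TPM in WT and 110.1 to 119.8 TPM in KO, with 2 of 4 lower, and neuronal markers to 7781 to 7917 TPM and 7837 to 7944 TPM. In RNA the neuronal sum was higher in every KO library, at 2116 to 2223 TPM against 1967 to 2057 TPM in WT. These slices are bulk tissue, so fewer cells of a type and less RNA per cell cannot be told apart. The part of these markers in any result below was not tested.

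Without Fmr1, footprints of Stau1 rose and those of Pum2 fell, by small amounts, and no other gene of the group passed the test in footprints, RNA or their ratio. In footprints 1 of the 7 genes was higher and 1 lower at an edgeR Benjamini-Hochberg adjusted p under 0.05, where 18.5% of 14438 genes tested were called (8.15% higher and 10.4% lower), so 2 of 7 is a share near the background. In RNA 0 of 7 were called against 4.89% of 13877 genes (2.11% higher, 2.77% lower); 2 had an unadjusted p under 0.05, and DESeq2 and limma called 0 as well. The median log2 fold change of the 7 was 0.00 in footprints and -0.08 in RNA. Over all genes these medians were -0.0001 and -0.005, so a shift common to all genes cannot be seen.

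Stau1 footprints were 53.7, 48.6 and 49.9 TPM in KO replicates 1 to 3 and 46.5, 43.2, 46.0 and 43.4 TPM in WT replicates 1 to 4. The groups did not overlap: each KO library lay above each WT library, a pattern that 15.1% of all genes showed in footprints (15.6% showed the reverse and 30.7% either). The log2 fold change was 0.17 ± 0.04 (SE; 95% interval 0.08 to 0.26), a 1.13-fold rise, with an edgeR Benjamini-Hochberg adjusted p of 0.0136. Stau1 RNA was 26.6, 28.7 and 25.1 TPM in KO and 21.6, 22.9, 22.7 and 24.6 TPM in WT. Here too all KO libraries lay above all WT libraries, as for 9.03% of genes in RNA (10.0% showed the reverse and 19.1% either). The RNA difference of 0.21 ± 0.08 (0.05 to 0.38) did not pass the test (unadjusted p = 0.0154, edgeR adjusted p = 0.130).

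The footprint call of Stau1 was kept in 15 of 17 alternative analyses, with log2 fold changes of 0.14 to 0.20. It was not called when the replicate number was entered as a block (edgeR adjusted p = 0.0593), alone or together with the removal of a length trend (0.0710).

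Stau2, the paralog in neuronal transport granules, had RNA of 114.9, 125.3 and 106.5 TPM in KO and 126.4, 128.2, 121.03 and 142.6 TPM in WT. KO replicates 1 and 3 lay below all WT libraries and KO replicate 2 lay among them. Its footprints were 56.2, 54.4 and 57.3 TPM in KO and 55.6, 50.0, 52.9 and 49.2 TPM in WT, and here KO replicates 1 and 3 lay above all WT libraries. The RNA difference was -0.17 ± 0.07 on the log2 scale (-0.31 to -0.03; edgeR adjusted p = 0.162) and the footprint difference 0.10 ± 0.04 (0.00 to 0.20; edgeR adjusted p = 0.149). Neither passed the test in edgeR or in any of 17 alternatives, in which the adjusted p ran from 0.0881 to 0.440 for RNA and from 0.0508 to 0.542 for footprints.

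Pum2 footprints were 45.3, 45.03 and 42.1 TPM in KO and 46.5, 48.4, 48.0 and 51.0 TPM in WT. The groups did not overlap, KO being lower throughout, a pattern that 15.6% of all genes showed in footprints (30.7% in either direction). The nearest values, 45.3 and 46.5 TPM, were close. The log2 fold change was -0.14 ± 0.04 (-0.23 to -0.06), a fold of 0.906, with an edgeR Benjamini-Hochberg adjusted p of 0.0288. Pum2 RNA was 193.6, 171 and 159 TPM in KO and 181, 181, 175 and 203 TPM in WT. The RNA groups overlapped, KO replicate 1 being the second highest of the 7 libraries, and the difference of -0.09 ± 0.06 (-0.22 to 0.04) did not pass the test (edgeR adjusted p = 0.472).

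The footprint call of Pum2 was kept in 9 of 17 alternative analyses, with log2 fold changes of -0.16 to -0.11. It was lost without KO replicate 3 (edgeR adjusted p = 0.115), without WT replicate 2 (0.0640) and without WT replicate 4 (0.0862). It was also lost in limma on log2 TPM (0.0549 and 0.0540 at pseudocounts of 1 and 0.1), with replicates 1 and 2 set against the others as a covariate (0.0543), and with the replicate block (0.115; 0.116 with the length trend removed).

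The CPEB genes gave no call in either assay. Cpeb1 and Cpeb2 footprints differed by 0.00 ± 0.04 and 0.00 ± 0.03 on the log2 scale, with 95% intervals of -0.09 to 0.09 and -0.07 to 0.08. Their libraries lay between 22.2 and 24.9 TPM in both genotypes. Differences larger than about 0.1 on the log2 scale in either direction thus fell outside both intervals. These intervals may be too narrow, because the deposited values varied less than counting noise, as given below.

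Cpeb3, whose protein represses glutamate receptor mRNAs, had 48.9, 44.7 and 42.9 TPM in KO footprints and 46.1, 47.6, 48.5 and 47.2 TPM in WT. The KO libraries lay on both sides of the WT range, and the difference was -0.06 ± 0.04 (-0.15 to 0.02; edgeR adjusted p = 0.331). Cpeb4 had 47.8, 40.3 and 42.6 TPM in KO and 40.5, 39.4, 42.2 and 40.7 TPM in WT footprints. KO replicate 1 stood apart at the top, and the difference of 0.09 ± 0.05 (-0.01 to 0.19) did not pass the test (edgeR adjusted p = 0.227). Without KO replicate 1 it was 0.03 (edgeR adjusted p = 0.721), and without KO replicate 2 it was 0.14 (0.0546). For Cpeb3 it was -0.10 without KO replicate 1 (0.0975) and -0.03 without KO replicate 3 (0.750). The RNA library of KO replicate 1 was the highest of the 7 for Cpeb4 RNA, at 52.3 TPM against 41.9 and 45.6 TPM in the other KO libraries and 43.2 to 47.8 TPM in WT. CPEB RNA differences ran from -0.12 ± 0.07 for Cpeb2 (-0.28 to 0.04; edgeR adjusted p = 0.404) to 0.03 ± 0.07 for Cpeb4 (-0.12 to 0.17; edgeR adjusted p = 0.879), with Cpeb3 at -0.08 and Cpeb1 at -0.04.

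**Figure D3:**
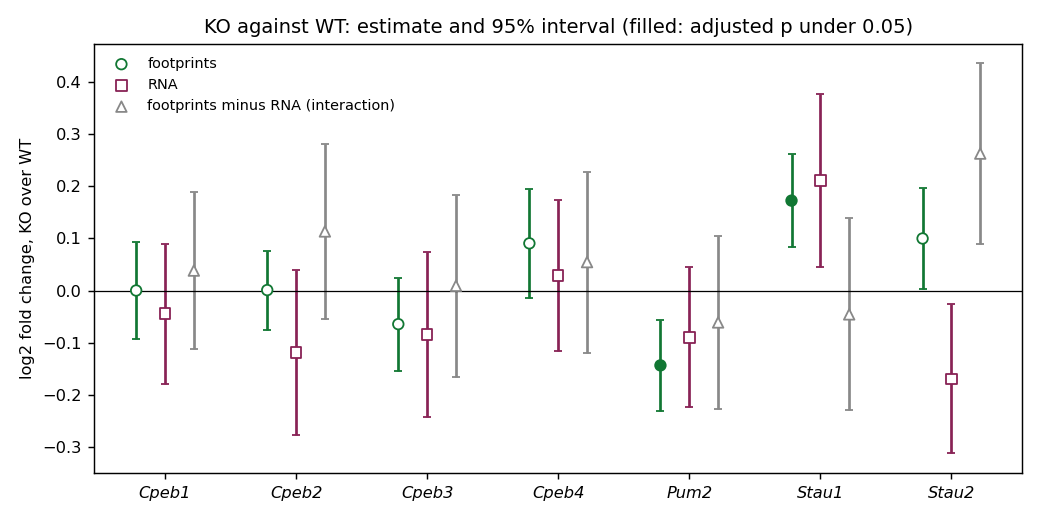
Points give the log2 fold change of KO over WT for footprints (circles), RNA (squares) and their difference (triangles), with 95% intervals, filled where the edgeR adjusted p was under 0.05. The footprint points of Stau1 (0.17) and Pum2 (-0.14) are the filled ones, and the RNA and footprint points of Stau2 lie on opposite sides of 0 (-0.17 and 0.10).

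Translational efficiency, the footprint change beyond the RNA change, was tested on all 14 libraries in 1 fit, as the genotype effect that differed between the assays. None of the 7 genes was called in edgeR, where 5 of 14435 genes (0.0346%; 0.0139% higher and 0.0208% lower) passed; 1 of the 7 had an unadjusted p under 0.05, and DESeq2 and limma also called 0 of the 7. That gene was Stau2, with 0.26 ± 0.08 (0.09 to 0.44; unadjusted p = 0.00460, edgeR adjusted p = 0.199). Over 18 alternatives its difference stayed between 0.18 and 0.35 and its adjusted p between 0.141 and 0.559. Stau1 gave -0.05 ± 0.09 and Pum2 -0.06 ± 0.08, so their footprint and RNA differences were not separable. The CPEB genes ran from 0.01 for Cpeb3 to 0.11 for Cpeb2.

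Ratios of paralogs within a library need no scaling between libraries, and 7 pairs (6 of CPEB genes, and Stau1 over Stau2) were compared in each assay with two-sided exact permutation tests. With 3 KO and 4 WT libraries the smallest p that the 35 splits allow is 0.0286, and 2 ratios reached it. After Benjamini-Hochberg adjustment over the 14 tests none was under 0.05. Even a ratio at the smallest p could pass this adjustment only if many of the 14 stood there. The absence of calls therefore says little about these ratios. The RNA ratio of Stau1 over Stau2 was 0.171 to 0.188 in the WT libraries and 0.229 to 0.235 in the KO libraries. The genotypes did not overlap and the KO libraries lay close together, with a difference of 0.39 on the log2 scale (exact p = 0.0286, adjusted 0.200). In footprints the same ratio was 0.838 to 0.882 in WT and 0.871 to 0.956 in KO, which overlap (0.07, exact p = 0.0857, adjusted 0.3). Both genes of this ratio lay on opposite sides in RNA, as given above, so the ratio is not separate evidence.

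The other ratio at the smallest p was Cpeb3 over Cpeb4 in footprints, at 1.14 to 1.21 in WT and 1.01 to 1.11 in KO (-0.15, exact p = 0.0286, adjusted 0.200). In RNA this ratio overlapped between genotypes, at 1.02 to 1.23 in WT and 0.888 to 1.15 in KO (-0.12, exact p = 0.314, adjusted 0.489). Cpeb2 over Cpeb4 was apart in RNA, at 0.599 to 0.672 in WT and 0.566 to 0.599 in KO (exact p = 0.0571, adjusted 0.267). Its lowest WT and highest KO values nearly met. Each of the remaining pairs overlapped between genotypes in both assays, as did Cpeb2 over Cpeb4 in footprints.

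**Figure D4:**
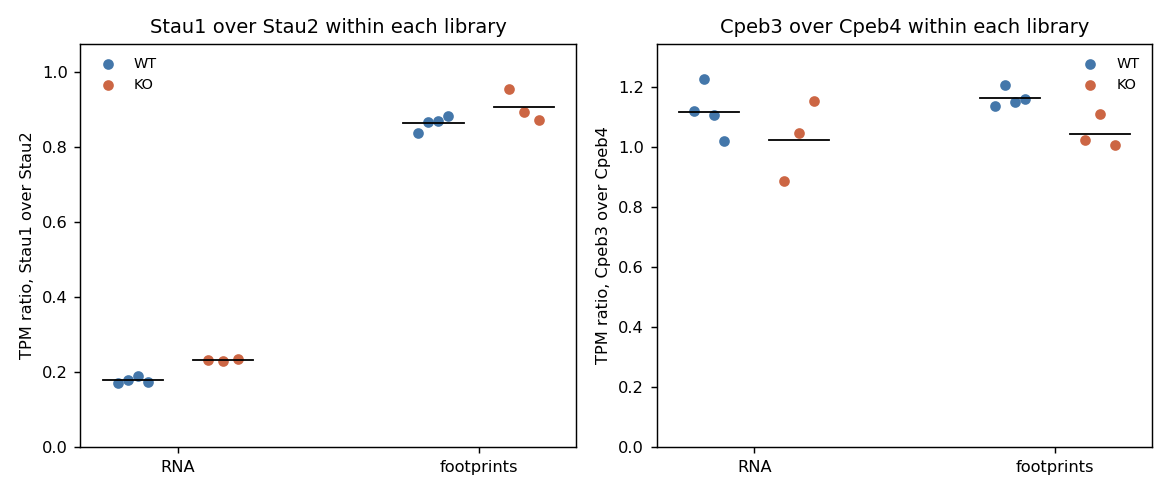
Each point is the TPM ratio of 2 paralogs in 1 library, on axes that start at 0, with bars at the means. For Stau1 over Stau2 the RNA ratio lies at 0.171 to 0.188 in WT and 0.229 to 0.235 in KO, while footprint ratios overlap; for Cpeb3 over Cpeb4 the footprint ratios are apart and the RNA ratios overlap.

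The genes whose values followed each member most closely were found by the root-mean-square distance of log2 TPM deviations from the WT means over all 14 libraries, among 10342 genes of at least 5 TPM in both assays. Stau1 was nearest to Pcna (0.0382), the sliding clamp of DNA replication, and Nsa2 (0.0464), a ribosome assembly factor, where the median gene lay at 0.171. Pum2 was nearest to Vps13b (0.0345), a lipid transfer protein, and 4932438A13Rik (0.0356), with a median of 0.152. Their footprint differences, whose sign and size the choice by distance fixes, were 0.15 for Pcna, 0.17 for Nsa2, -0.14 for Vps13b and -0.15 for 4932438A13Rik on the log2 scale. Stau2 was nearest to Zfp788 (0.0450) and the kinase Stk3 (0.0501).

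Among the CPEB genes, Cpeb1 was nearest to the import receptor Tnpo2 (0.0247) and the kinase Dstyk (0.0344), and Cpeb2 to the coactivator Ncoa1 (0.0395) and to Ascc2 (0.0412). Cpeb3 was nearest to the autophagy protein Atg2a (0.0422) and Pacsin2 (0.0444), and Cpeb4 to Wdr59 (0.0432) and the coat protein Copb1 (0.0437). No member was among the nearest genes of another. The closest pair by rank was Cpeb1 with Cpeb2, Cpeb1 being the 469th nearest gene to Cpeb2, while Stau2 was only the 6047th nearest to Stau1.

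Genes that work with these proteins were followed in 6 lists, and mRNAs attributed to them in 3 more, all written from general knowledge. Among 17 CPEB cofactors and polyadenylation factors 1 rose and 1 fell in footprints, where 18.5% of all genes were called, with a median of 0.03 on the log2 scale. Pabpc1, the main cytoplasmic poly(A)-binding protein, rose by 0.23 ± 0.04 (edgeR adjusted p = 0.00456). Btg2, which recruits deadenylases, fell by 0.19 (edgeR adjusted p = 0.0374), a call lost without KO replicate 1 or 2 or WT replicate 1, 2 or 3. In RNA, Cpsf2, a subunit of the cleavage and polyadenylation complex, was called higher (0.24, edgeR adjusted p = 0.0481), which was lost without KO replicate 1 or 2 or any single WT replicate.

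Of 23 subunits of the CCR4-NOT and other deadenylase, decapping and repressor complexes, 4 rose in footprints and 0 fell (median 0.07; 7 had an unadjusted p under 0.05), where 8.15% of all genes rose and 18.5% were called. They were Lsm14b (0.27 ± 0.03, edgeR adjusted p = 8.28e-04), Dcp1b (0.29 ± 0.05, 0.00426), Lsm14a (0.17, 0.00655) and Dcp1a (0.24, 0.00807; lost without KO replicate 1). With the replicate block 3 rose, Dcp1a being lost. With the length trend removed as well 2 rose, as Lsm14a was also lost (edgeR adjusted p = 0.0514). In RNA 0 of the 23 were called (4 at an unadjusted p under 0.05; 0 by DESeq2). Of 5 Pumilio cofactors and relatives analysed here, Trim3, a neuronal relative of the Pumilio partner Brat, rose in footprints (0.18 ± 0.03, edgeR adjusted p = 0.00426), and the other 4 were not called.

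Of 13 Staufen partners and factors of nonsense-mediated decay, 3 rose and 1 fell in footprints (median 0.02), where 8.15% of all genes rose and 10.4% fell. Casc3 and Magoh, which belong to the exon junction complex, rose by 0.19 and 0.18 (edgeR adjusted p = 0.00655 and 0.00880), and so did Upf1, the helicase that Staufen recruits, by 0.17 (0.0199). With the replicate block 1 rose and 1 fell, Magoh (edgeR adjusted p = 0.0521) and Upf1 being lost. The Upf1 call was also lost without KO replicate 1, WT replicate 2 or WT replicate 4, and without KO replicate 2 the list had 5 genes called higher. Smg1, the kinase that phosphorylates UPF1, fell by 0.20 (0.0102), which limma did not call. In RNA, Eif4a3, another exon junction protein, was called higher (0.24, 0.0288), which was lost without KO replicate 2 or 3 or WT replicate 1, 2 or 4.

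Neuronal RNA granule proteins were the list with the highest median, 0.13 in footprints and 0.14 in RNA. Of 16 measured, 7 rose and 0 fell in footprints, where 8.15% of all genes rose, and 4 rose in RNA, where 2.11% of all genes rose; 9 had an unadjusted p under 0.05 in each assay. Fxr2, a paralog of FMRP (0.24 ± 0.04, edgeR adjusted p = 0.00318), and the mRNA-packaging protein Ybx1 (0.22 ± 0.04, 0.00345) led in footprints. Ddx3x, Ddx1 and Syncrip rose by 0.20, 0.18 and 0.17, and these 5 were called in every alternative. G3bp1 and Caprin1, stress granule proteins, rose by 0.14 each, and their calls were lost without several single libraries (KO replicate 1 or 3, or WT replicate 2 or 4, for both, and KO replicate 2 for G3bp1 and WT replicate 3 for Caprin1); G3bp1 was also lost with the length trend removed. The summed neuronal markers, given above, were also higher in KO RNA (median 0.12; 1 of 5 called higher) and overlapped in footprints, and their part in the values of this list was not tested. The RNA calls (Ddx3x, Ddx1, Hnrnpu and Caprin1, at 0.22 to 0.32) numbered 0 without KO replicate 1, 1 without KO replicate 2, WT replicate 3 or WT replicate 4, 2 without WT replicate 2, and 0 in limma.

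Of 13 other double-stranded RNA-binding proteins, relatives of Staufen by their RNA-binding domain, 3 rose and 0 fell in footprints (median 0.05; 7 had an unadjusted p under 0.05), where 8.15% of all genes rose and 18.5% were called. Strbp, a spermatid and brain protein, rose by 0.24 ± 0.04 (edgeR adjusted p = 0.00370). Tarbp2, the Dicer partner, rose by 0.29 ± 0.07 (0.0170; lost without KO replicate 3 or WT replicate 1 and by DESeq2), and the helicase Dhx9 by 0.17 (0.0385; lost without KO replicate 1 or 3 or WT replicate 2 or 4). Only 1 call remained without KO replicate 3. Dhx9 was also called higher in RNA (0.22, 0.0437), which was lost without any single library except KO replicate 3.

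The mRNAs described in the literature as CPEB targets were mostly lower in footprints, and none was called in RNA. Of 10, 6 fell and 0 rose in footprints, where 10.4% of all genes fell, with a median of -0.17; 7 had an unadjusted p under 0.05. The glutamate receptor subunits Grin2a (-0.34 ± 0.03, edgeR adjusted p = 3.27e-04) and Gria1 (-0.25 ± 0.03, 9.17e-04) had the smallest p, followed by Gria2 (-0.23), Grin2b (-0.21), the dendritic cytoskeletal protein Map2 (-0.26) and the scaffold Dlg4 (-0.13). The count was 5 to 6 with any 1 library left out (Dlg4 was lost without KO replicate 3 or WT replicate 4) and 6 with the length trend removed. In RNA 0 of 10 were called (median -0.03; 1 at an unadjusted p under 0.05; 1 by DESeq2), and 0 passed in translational efficiency (median -0.13; 3 at an unadjusted p under 0.05). Many of these genes are synaptic mRNAs that other lists of such mRNAs would hold too.

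Pumilio targets moved both ways: of 9, 3 rose and 4 fell in footprints (median -0.06), where 8.15% of all genes rose and 10.4% fell. With the replicate block 1 rose and 2 fell. The sodium channels Scn1a (-0.23 ± 0.04, edgeR adjusted p = 0.00203) and Scn8a (-0.13), the receptor subunit Gria2 (-0.23 ± 0.03, 0.00128) and Atxn1 (-0.16) fell. Mapk14, a stress kinase (0.20), the transcription factor E2f3 (0.18) and the cell-cycle inhibitor Cdkn1b (0.13) rose, of which Mapk14 alone kept its call in all alternatives. The number that rose was 1 without KO replicate 1, KO replicate 3, WT replicate 1 or WT replicate 3, in DESeq2 and with the length trend removed, 2 without WT replicate 4, and the number that fell was 2 without KO replicate 3. Scn8a was lost without KO replicate 3 or WT replicate 4 and with the length trend removed (-0.08 and edgeR adjusted p = 0.228 with the replicate block as well), and Atxn1 without KO replicate 3, WT replicate 1 or WT replicate 3. In RNA 0 of 9 were called (1 at an unadjusted p under 0.05; 0 by DESeq2).

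Of 7 mRNAs attributed to Staufen, 2 fell and 0 rose in footprints (median -0.06), where 10.4% of all genes fell. They were Map2 (-0.26 ± 0.05, edgeR adjusted p = 0.00463) and the presynaptic protein Cplx1 (-0.23 ± 0.04, 0.00235). These 2 were also the only ones with an unadjusted edgeR p under 0.05. In RNA 1 of the 7 was called higher, where 2.11% of all genes rose. This was Calm3, a calmodulin gene whose mRNA Staufen2 binds (0.39 ± 0.09, edgeR adjusted p = 0.0297). Calm3 was not called in footprints (0.05, edgeR adjusted p = 0.629). That RNA call was lost without KO replicate 2 or WT replicate 1, 3 or 4 and in DESeq2 and limma. Gria2, Map2, Camk2a, Bdnf and Eif4e stand on 2 lists each, and 3 of the 7 mRNAs attributed to Staufen are also on the CPEB target list, so the lists are not independent of each other. In all 9 lists 0 genes passed in translational efficiency in edgeR.

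**Figure D5:**
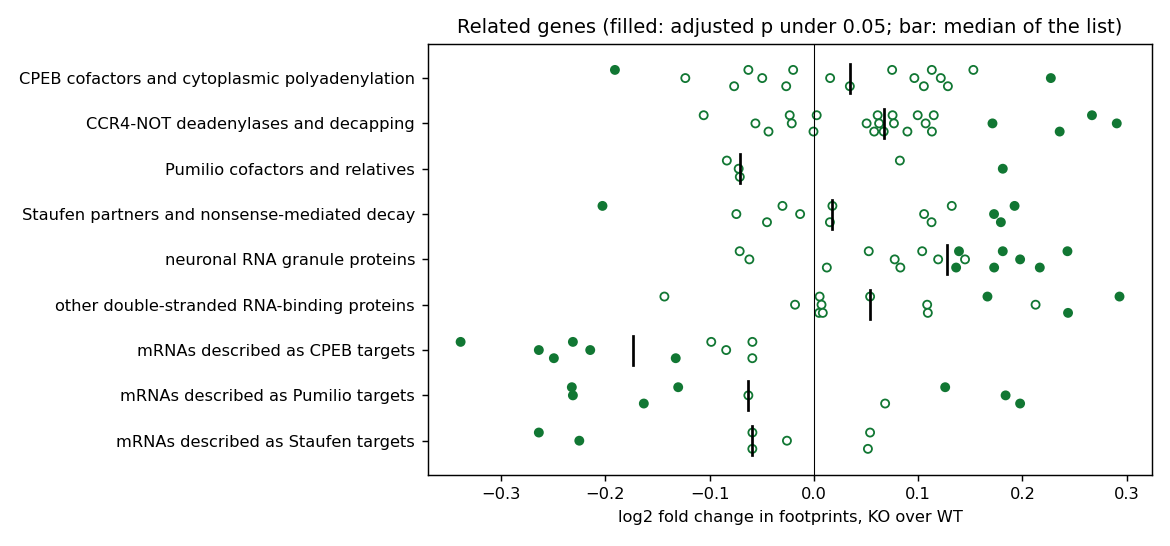
Each point is the log2 fold change in footprints, KO over WT, of 1 gene of a list, filled where the edgeR adjusted p was under 0.05, with a bar at the list's median. Filled points lie to the right of 0 for granule proteins (7 of 16, median 0.13) and to the left for CPEB targets (6 of 10, median -0.17).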

How the data were processed

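Per the submitters' processing notes, reads were handled with cutadapt 1.7.1, Trimmomatic 0.32, Bowtie2 2.1.0, TopHat2 2.0.9, SAMtools 0.0.19, bedtools and RSEM 1.2.11 on mm10; which step used which tool is not given there. The authors deposited estimated counts and TPM per gene and library. The estimated counts deposited by the authors are fractional and 0% of them are 0, and gene means go down to 1.03 TPM in RNA and 1.01 TPM in footprints, a floor whose source is not stated.

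The 7 genes were taken by symbol from the study's gene table. Estimated counts were rounded and fitted over all genes with edgeR 4.0.16 in R 4.3.3 (filterByExpr with a minimum count of 10, TMM scaling, quasi-likelihood F-test with robust estimation, and a threshold of 0.05 on the Benjamini-Hochberg adjusted p), separately for footprints and RNA, and as the interaction term of a fit on all 14 libraries for translational efficiency. An adjusted p with no tool beside it comes from edgeR. SE is the log2 fold change over the root of F. Ratios of paralogs used exact permutation tests (scipy 1.17.1).

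The members, lists and alternatives were chosen with earlier results of these data known, so they are not independent support. By rule the text names all 7 genes, up to 2 genes per list with the smallest footprint p among those called, the 2 genes nearest to each member, and Fmr1; further genes of the lists were named after their values were seen. A gene of the lists is not reported here. Symbols and positions come from the GRCm38 RefSeq gene table. Alternatives were DESeq2 1.42.0, limma 3.58.1, other scalings and filters, a length trend removed, covariates and each library left out. For translational efficiency the RNA and footprint libraries of the same genotype and number were left out together.

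On simulated counts the footprint test recovered 26% of genes changed by 0.25 and 80% of those changed by 0.5 on the log2 scale, and the RNA test 20.4% and 62.5%. Those counts were drawn with a dispersion of 0.004 and 200 changed genes. In the deposited values the variance over the mean of genes at 20 to 50 counts was 0.158 to 0.406, below counting noise. The recovered shares therefore do not give the power of the tests on these data. Deviations of KO and WT libraries with the same number correlated at -0.34 to -0.08 in RNA and -0.44 to -0.002 in footprints, and those of RNA and footprint libraries with the same number at -0.04 to 0.16, so the numbers were not taken as pairs.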

Additional observations from a re-analysis of the deposited data

How the results depend on the processing

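No result for the 7 genes changed direction where it was called, and the footprint calls of Stau1 and Pum2 are bounded as given above. The 2 members called in footprints became 0 with the replicate block, alone or with the length trend removed, 1 in limma at either pseudocount or with the covariate for replicate sets, and 1 to 2 with a library left out. Over all genes the footprint count of 2677 became 1304 with the replicate block and 1631 with the length trend removed as well (1809 to 2335 with a library left out). The RNA count of 678 became 204 with the block, 185 with both, 389 and 384 in limma at pseudocounts of 0.1 and 1, 362 with the covariate, and 236 to 872 with a library left out. The 5 calls in translational efficiency became 90 in DESeq2, 10 with the length trend removed, 3 with the block as well, and 70 and 64 in limma. They became 2 to 68 with the RNA and footprint libraries of 1 replicate left out together. The cause of these changes was not tested; the block also leaves fewer residual degrees of freedom. The ratios of paralogs gave 0 calls under all 8 alternatives. With a library left out the exact test has fewer splits and cannot pass. On all libraries it could pass only if many ratios stood at the smallest p. Within groups, replicates 1 and 2 against the others held 2.0% of the variance in RNA and 3.74% in footprints, against 20% for an even share, and the variance over the mean of genes at 20 to 50 counts was 0.158 to 0.406, below that of counting noise. The p-values may therefore be too small, and counting intervals are not given.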
